A study of Mus musculus with 4 samples.

Results

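The chemokine system promoters are 53 of the 26354 gene promoters in the deposited table of histone H3 lysine 9 dimethylation (H3K9me2). They were chosen by gene symbol alone: the stems Ccl, Cxcl, Xcl and Cx3cl for ligands and Ccr, Cxcr, Xcr, Cx3cr and Ackr for receptors, followed by a digit. Of the 53, 33 were ligand promoters (18 Ccl, 13 Cxcl, Xcl1 and Cx3cl1) and 20 were receptor promoters (11 Ccr, 7 Cxcr, Xcr1 and Cx3cr1). No symbol began with Ackr, and the atypical receptor now called Ackr3 was listed under its older symbol, Cxcr7. Ccl19, Ccl21a, Ccl21b, Ccl21c and Ccl27a were not analysed here.

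The mark was mapped by chromatin immunoprecipitation and sequencing (ChIP-seq) in the aortic medial layer, the smooth muscle layer of the vessel wall. There were 4 libraries, namely an H3K9me2 ChIP library and an input library, sequenced without antibody enrichment, from each of 2 experiments, v102 and v134. All came from male C57Bl/6J mice, whose aortas were cleared of fat, stripped by hand of adventitia and endothelium, and fixed without culture, so no group carried a treatment or a transgene. The age of the mice and the number behind each library are not given in the sources used here.

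H3K9me2 is written mainly by the methyltransferases Ehmt2 and Ehmt1 and is a mark of repressed genes in euchromatin. Chemokines are small secreted proteins that draw cells along a gradient, and their receptors are G protein-coupled receptors, most of them known from leukocytes. Many chemokine genes arose by tandem duplication and lie in clusters, and many of the inflammatory ones are induced through NF-kB and AP-1, also in vascular smooth muscle cells.

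Reads were counted within 1 kb on either side of each transcription start. The deposited ratio is the number of ChIP reads divided by the number of input reads, both summed over the 2 experiments and not scaled for library size. Summed over all promoters, the ChIP libraries held 162233 and 229605 reads and the input libraries 619100 and 1084349, so the median deposited ratio of all promoters was 0.162 and the 75th percentile was 0.343. At the 53 promoters there were 0 to 28 ChIP reads in v102 and 0 to 36 in v134 (medians 4 and 5), against 8 to 30 and 18 to 63 input reads. Intervals given below are 95% Wilson intervals and, like the limits for counts of 0, cover counting error only.

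The promoters that carry the contrast are shown first. They are the 2 ligands with the highest and the 2 with the lowest mean log2 H3K9me2/input ratio among members with a RefSeq promoter entry, and the receptors chosen in the same way, without Ccr1l1, whose RefSeq start lay 8.31 kb from the GENCODE start. Each line gives the 250 bases before the start, 5′ to 3′ on the gene's strand (RefSeq, GRCm38.p6). Capitals mark matches to TATAAA on the gene's strand, to the AP-1 motif TGANTCA on either strand, and to the NF-kB consensus on either strand.
Higher H3K9me2, ligands and receptor:
Ccl12, chr11:82101595-82101844, plus strand: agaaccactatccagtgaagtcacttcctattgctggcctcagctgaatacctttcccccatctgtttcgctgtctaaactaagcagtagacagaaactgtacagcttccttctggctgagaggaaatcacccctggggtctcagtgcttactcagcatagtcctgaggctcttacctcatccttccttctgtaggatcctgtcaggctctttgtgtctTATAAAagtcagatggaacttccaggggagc
Ccl8, chr11:82114935-82115184, plus strand: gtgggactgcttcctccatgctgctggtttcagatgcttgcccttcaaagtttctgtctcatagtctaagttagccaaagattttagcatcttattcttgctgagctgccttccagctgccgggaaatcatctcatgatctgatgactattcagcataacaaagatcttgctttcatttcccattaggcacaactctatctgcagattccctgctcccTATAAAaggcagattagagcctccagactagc
Ccr3, chr9:124021721-124021970, plus strand: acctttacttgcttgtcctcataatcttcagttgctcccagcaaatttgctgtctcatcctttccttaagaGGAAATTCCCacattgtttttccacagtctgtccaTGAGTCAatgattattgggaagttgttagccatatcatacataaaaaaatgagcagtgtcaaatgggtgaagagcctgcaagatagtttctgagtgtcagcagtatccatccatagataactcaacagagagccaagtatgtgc
Lower H3K9me2, ligands and receptors:
Ccl25, chr8:4324960-4325209, plus strand: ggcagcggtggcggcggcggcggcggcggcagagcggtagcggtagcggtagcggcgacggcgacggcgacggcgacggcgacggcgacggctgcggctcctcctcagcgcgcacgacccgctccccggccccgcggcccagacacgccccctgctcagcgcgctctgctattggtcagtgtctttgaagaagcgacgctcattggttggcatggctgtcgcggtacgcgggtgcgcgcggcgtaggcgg
Ccl17, chr8:94810203-94810452, plus strand: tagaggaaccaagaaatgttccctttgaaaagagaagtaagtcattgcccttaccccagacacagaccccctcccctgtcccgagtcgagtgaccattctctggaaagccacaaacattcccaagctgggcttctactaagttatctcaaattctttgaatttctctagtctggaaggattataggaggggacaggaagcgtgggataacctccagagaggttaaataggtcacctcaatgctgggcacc
Cxcr7, chr1:90203730-90203979, plus strand: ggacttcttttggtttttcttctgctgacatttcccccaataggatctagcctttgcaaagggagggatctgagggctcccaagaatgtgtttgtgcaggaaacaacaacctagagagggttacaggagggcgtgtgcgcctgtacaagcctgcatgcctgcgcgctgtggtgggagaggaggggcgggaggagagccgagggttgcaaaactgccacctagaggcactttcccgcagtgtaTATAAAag
Ccr8, chr9:120091883-120092132, plus strand: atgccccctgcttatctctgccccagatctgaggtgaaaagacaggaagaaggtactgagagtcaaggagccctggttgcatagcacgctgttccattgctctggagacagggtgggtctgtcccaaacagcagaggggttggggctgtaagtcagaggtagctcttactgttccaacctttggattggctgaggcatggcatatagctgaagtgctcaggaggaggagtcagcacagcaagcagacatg
Ccl12 and Ccl8 each have a TATAAA, whose first base is at position -31 and -32 from the start, and Cxcr7, among the low ones, has a TATAAA at -8. Ccr3 holds an NF-kB match at -179 and an AP-1 match at -144. Ccl25 stands out from the other 6 by its base composition, with 45 CpG dinucleotides in the 250 bases.

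ChIP was compared with input at every promoter by edgeR's quasi-likelihood test, with TMM scaling of the libraries and Benjamini-Hochberg adjustment over all 26354 promoters at 0.05. A promoter is called above input where its log2 fold change, ChIP over input after scaling, is positive and past that threshold, and below input where it is negative and past it. The SE given with a log2 fold change is its absolute value divided by the square root of the test's F statistic. It is worked back from the test and is no separate estimate of error. At counts of a few reads it can understate counting error. Of the 53 chemokine system promoters 7 (13.2%) were above input, where 18.6% of all promoters were, and 10 (18.9%) were below, where 17.0% of all promoters were. The other 36 passed neither way. The median deposited ratio was 0.156 at the 53 promoters, beside 0.162 at all promoters. In the scaled log2 ratio, 8 of the 53 were in the top quartile of all promoters in both experiments, and 17.7% of all promoters were. The family as a whole sat near the level of the table, with its members spread over it. Promoters of cell type markers were mixed. The ChIP count at Myh11, the smooth muscle myosin heavy chain, was 0 in both experiments, against 19 and 41 input reads. Smtn, another smooth muscle marker, was above input, with 15 and 34 ChIP reads against 22 and 58 (adjusted p = 0.000169 by edgeR). Acta2, Tagln and Cnn1 passed neither way. Of 6 smooth muscle marker promoters 1 was above input and 2 were below, of 4 endothelial ones 1 and 1, of 5 leukocyte ones 2 and 0, and of 3 adventitial fibroblast ones 0 and 1. Of those below, Lmod1, Pecam1 and Pdgfra were lost with the experiment as a block (adjusted p = 0.0631, 0.0922 and 0.0564 by edgeR). A promoter mark is no measure of how many cells of a type were present.

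**Figure D1:**
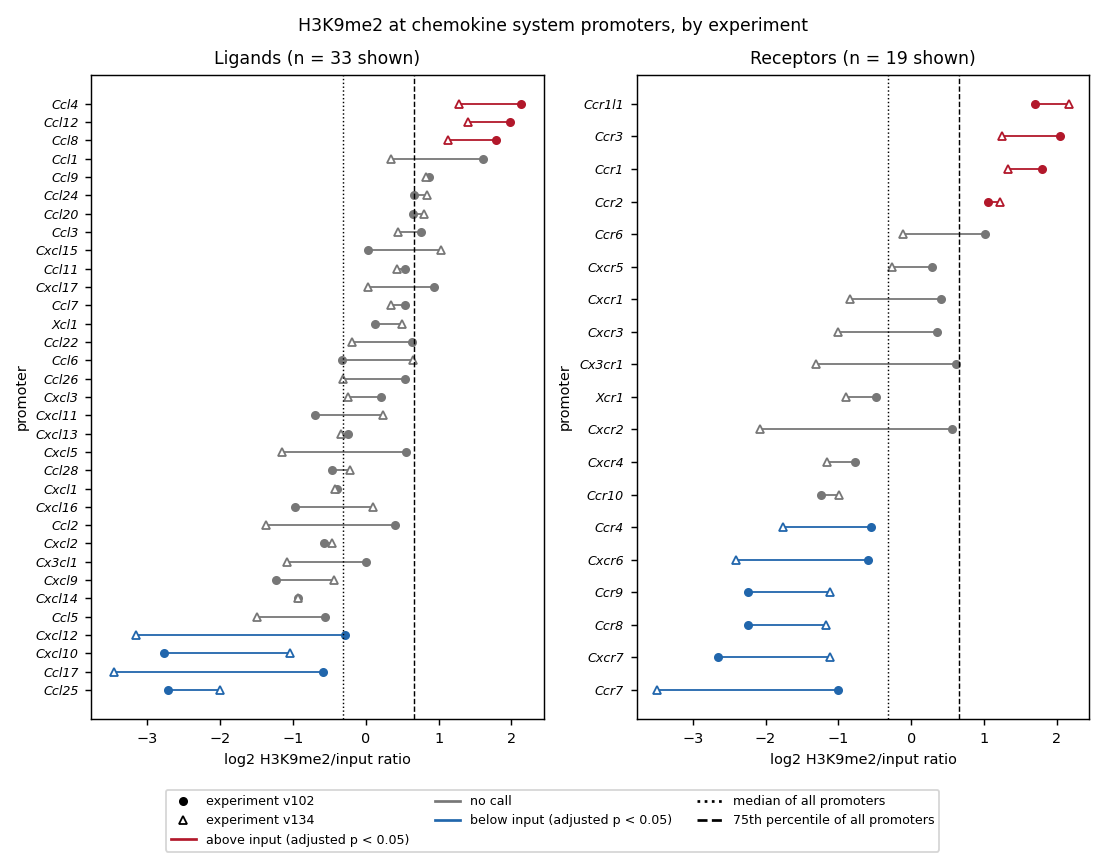
Log2 H3K9me2/input ratio (scaled by library totals, pseudocount of 1 read) of the 33 ligand promoters and 19 of the 20 receptor promoters, ordered by their mean. Circles are experiment v102, triangles experiment v134, the joining line spans both, and colour gives the edgeR call. All 7 promoters above input lie right of the 75th percentile of all promoters in both experiments, and the 10 below input lie at the bottom of each panel, with the experiments far apart at Cxcl12, Ccl17 and Ccr7.

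Among the ligands, 3 Ccl promoters were above input. Ccl12 (ENSMUSG00000035352.3, chromosome 11, 82101845 to 82103400, plus strand) encodes a CC chemokine that attracts monocytes. It had 28 and 22 ChIP reads in v102 and v134, against 27 and 40 input reads, a deposited ratio of 0.746 (0.518 to 1.07). Its log2 fold change was 1.84 (SE 0.37, adjusted p = 9.75e-06 by edgeR), the largest of the ligands. Ccl4 (ENSMUSG00000018930.3, chromosome 11, 83662584 to 83664683, plus strand), a macrophage inflammatory protein, had 14 and 15 ChIP reads against 12 and 30 input reads, a ratio of 0.690 (0.432 to 1.10). Its log2 fold change was 1.74 (SE 0.45, adjusted p = 0.000799). Ccl8 (ENSMUSG00000009185.2, chromosome 11, 82115185 to 82116799, plus strand), a chemoattractant of T cells and monocytes, had 18 and 18 ChIP reads against 20 and 40 input reads, a ratio of 0.600 (0.398 to 0.904). Its log2 fold change was 1.54 (SE 0.40, adjusted p = 0.000993). All 3 ligands were above the 75th percentile of all promoters in both experiments, at mean log2 ratios of 1.69 ± 0.41, 1.71 ± 0.60 and 1.46 ± 0.47 (SD, n = 2 experiments) for Ccl12, Ccl4 and Ccl8.

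Below input were 4 ligand promoters, each with a count of 0 in 1 of the 2 ChIP libraries and no more than 3 reads in the other. Ccl17 (ENSMUSG00000031780.2, chromosome 8, 94810453 to 94812036, plus strand), a ligand of Ccr4, had 3 and 0 ChIP reads against 22 and 51 input reads, a ratio of 0.0411 (0.0137 to 0.123), and a log2 fold change of -2.28 (SE 0.75, adjusted p = 0.0114 by edgeR). Cxcl12 (ENSMUSG00000061353.11, chromosome 6, 117168535 to 117181367, plus strand), the homeostatic ligand of Cxcr4, had 2 and 0 ChIP reads against 13 and 41, a ratio of 0.0370 (0.00995 to 0.138), with a log2 fold change of -2.41 (SE 0.91, adjusted p = 0.0272). Cxcl10 (ENSMUSG00000034855.13, chromosome 5, 92346638 to 92348889, minus strand), an interferon-induced ligand of Cxcr3, had 0 and 3 ChIP reads against 25 and 38, a ratio of 0.0476 (0.0158 to 0.143), with a log2 fold change of -2.11 (SE 0.78, adjusted p = 0.0245). At Ccl17 and Cxcl12 all ChIP reads were from v102, and at Cxcl10 all were from v134.
The lowest ratio of the 53 was at Ccl25 (ENSMUSG00000023235.14, chromosome 8, 4325210 to 4360020, plus strand), the thymic and gut ligand of Ccr9. It had 0 and 1 ChIP reads against 24 and 37 input reads, a ratio of 0.0164 (0.00286 to 0.0939), with a log2 fold change of -3.57 (SE 1.03, adjusted p = 0.00338 by edgeR). Its start lies 203 bases from that of Elavl1, an RNA-binding protein gene expressed in most cells, and Elavl1 was counted at 0 and 1 ChIP and 25 and 36 input reads, so these are mostly the same reads and cannot be assigned to Ccl25.

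Among the receptors, 4 were above input, all of them Ccr genes that follow each other on chromosome 9. Ccr1l1 (ENSMUSG00000064039.4, chromosome 9, 123977243 to 123978408, minus strand), a Ccr1-like receptor gene, had the highest ratio of the 53, with 16 and 36 ChIP reads against 19 and 38 input reads, 0.912 (0.628 to 1.33). Its log2 fold change was 2.11 (SE 0.37, adjusted p = 4.11e-07 by edgeR). Ccr1 (ENSMUSG00000025804.5, chromosome 9, 123962124 to 123968692, minus strand), a receptor of several inflammatory Ccl ligands, had 19 and 23 ChIP reads against 21 and 44, a ratio of 0.646 (0.439 to 0.950), with a log2 fold change of 1.65 (SE 0.38, adjusted p = 0.000199). Ccr3 (ENSMUSG00000035448.9, chromosome 9, 124021972 to 124031689, plus strand), the eotaxin receptor of eosinophils, had 13 and 17 ChIP reads against 12 and 35, a ratio of 0.638 (0.405 to 1.01), with a log2 fold change of 1.64 (SE 0.43, adjusted p = 0.00122). Ccr2 (ENSMUSG00000049103.14, chromosome 9, 124101950 to 124113557, plus strand), the monocyte receptor of Ccl2, had 11 and 30 ChIP reads against 21 and 62, a ratio of 0.494 (0.341 to 0.717), with a log2 fold change of 1.26 (SE 0.37, adjusted p = 0.00419). Their mean log2 ratios were 1.93 ± 0.33, 1.56 ± 0.33, 1.64 ± 0.57 and 1.14 ± 0.11 (SD, n = 2 experiments) for Ccr1l1, Ccr1, Ccr3 and Ccr2. Ccr2 was the lowest of the 4 in both experiments; differences among the 4 were not tested.
The call at Ccr2 was lost without the H3K9me2 library of v134 or without the input library of v102, and in DESeq2 (adjusted p = 0.0886), and that at Ccr3 was lost without the input library of v102. The windows of Ccr1, Ccr1l1 and Ccr2 shared no stretch of 75 bases, the read length, with the window of another promoter. That of Ccr3 shared 104 of its 1927 such stretches with windows of 59 other promoters. These windows were taken at GENCODE starts, and the RefSeq start of Ccr1l1 lay 8.31 kb away.

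Below input were 6 receptor promoters, with 0 to 4 ChIP reads in each library. Ccr7 (ENSMUSG00000037944.8, chromosome 11, 99144196 to 99155077, minus strand), which guides lymphocytes and dendritic cells to lymph nodes, had 2 and 0 ChIP reads against 22 and 52 input reads, a ratio of 0.0270 (0.00730 to 0.100). Its log2 fold change was -2.87 (SE 0.83, adjusted p = 0.00358 by edgeR). Ccr8 (ENSMUSG00000042262.5, chromosome 9, 120092114 to 120094906, plus strand), a receptor of Ccl1 and, in the mouse, Ccl8, had 0 and 2 ChIP reads against 17 and 31, with a log2 fold change of -2.27 (SE 0.92, adjusted p = 0.0412). Cxcr7 (ENSMUSG00000044337.5, chromosome 1, 90203980 to 90216751, plus strand), which binds and clears Cxcl12, had 0 and 4 ChIP reads against 23 and 50, with a log2 fold change of -1.90 (SE 0.70, adjusted p = 0.0241). Cxcr6 (ENSMUSG00000048521.8, chromosome 9, 123806475 to 123811760, plus strand), the receptor of Cxcl16, had 3 and 1 ChIP reads against 22 and 49, with a log2 fold change of -1.84 (SE 0.70, adjusted p = 0.0297). Ccr4 (ENSMUSG00000047898.7, chromosome 9, 114490316 to 114504916, minus strand), the receptor of Ccl17 and Ccl22, had 4 and 3 ChIP reads against 27 and 63, with a log2 fold change of -1.38 (SE 0.57, adjusted p = 0.0459).
Ccr9 (ENSMUSG00000029530.16, chromosome 9, 123678439 to 123784330, plus strand), the receptor of Ccl25, had 0 and 3 ChIP reads against 17 and 40, with a log2 fold change of -1.94 (SE 0.80, adjusted p = 0.0454). The GENCODE start of Ccr9 lies 446 bases from that of Slc6a20a, which had 0 and 3 ChIP and 13 and 38 input reads, and 88.8 kb from the RefSeq start, and which of the starts was counted is not given in the sources used here. The RefSeq start of Ccr4 was 8.37 kb from its GENCODE start.

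In all, 8 of the 10 promoters below input had a count of 0 in 1 of the 2 ChIP libraries. A count of 0 allows up to 3 reads, which at these input counts is a ratio of up to 0.0577 at Ccr7 and up to 0.176 at Ccr8 and Ccr9. These calls were therefore less firm than those above input. With the experiment as a replicate block, which pairs each ChIP library with its input, the 7 promoters above input kept their calls, while 2 of the 10 below did, Ccl25 (adjusted p = 0.0234) and Ccr7 (adjusted p = 0.0286), and the other 8 had adjusted p of 0.0576 to 0.110. Their log2 fold changes moved by no more than 0.063, and over the whole table the calls below input fell from 4484 to 2187. Without the input library of v102 none of the 10 was called by edgeR (6 at an unadjusted p under 0.05), without that of v134 none was (3 unadjusted), and in DESeq2 none was (3 unadjusted, with no adjusted p defined).

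The question of whether ligands and receptors differed was put to the pooled reads of each class. In v102 the ligands had 216 ChIP and 702 input reads, a ratio of 0.308 (0.264 to 0.358), and the receptors 118 and 391, a ratio of 0.302 (0.246 to 0.371). In v134 the ligands had 263 and 1267, a ratio of 0.208 (0.182 to 0.237), and the receptors 161 and 870, a ratio of 0.185 (0.156 to 0.219). The ligand ratio was 1.02 times that of the receptors in v102 (0.784 to 1.33) and 1.12 times in v134 (0.901 to 1.40), with exact conditional intervals for the odds ratio at 95%. On the log2 scale the difference, ligands minus receptors, was 0.10 ± 0.10 (SD, n = 2 experiments), and both intervals, which hold counting error only, include 1. By medians over promoters in place of pooled reads, the difference was -0.05 in v102 and 0.81 in v134, so its size depends on how the promoters are summarised. An exact sign-flip permutation test over 2 experiments cannot give a two-sided p below 0.5, which is the value here and in the 2 comparisons that follow.
Among the receptors 10 of 20 were called in either direction, compared with 7 of 33 ligands and 35.6% of all promoters. With the replicate block the receptor calls at Ccr4, Ccr8, Ccr9, Cxcr6 and Cxcr7 were lost, and the ligand calls at Ccl17, Cxcl10 and Cxcl12. Over the whole table, calls then fell from 4902 to 4173 above input and from 4484 to 2187 below. The receptors still called were Ccr1, Ccr1l1, Ccr2, Ccr3 and Ccr7. Their share of the 20 was near that of all promoters with the block, so the higher receptor share was not kept.

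By family, the Ccl ligands and Ccr receptors held all 7 promoters above input. The Ccl ligands had pooled log2 ratios, scaled so that all promoters together are at 0, of 0.65 in v102 and 0.22 in v134, and the Cxcl ligands of -0.69 and -0.57. The Ccr receptors were at 0.52 and 0.32 and the Cxcr receptors at -0.32 and -1.50. The pooled Ccr value stands over a wide range, with deposited ratios from 0.0270 to 0.912. None of the 13 Cxcl and 7 Cxcr promoters was above input by edgeR on all 4 libraries (0 also at an unadjusted p under 0.05), while 2 and 2 were below. DESeq2 gave no adjusted p to any Cxcl promoter, nor to any Cxcr promoter but Cxcr5. At its unadjusted p under 0.05, 0 of them were above input. Of the 18 Ccl promoters 3 were above and 2 below (16.7% and 11.1%), and of the 11 Ccr promoters 4 and 4 (36.4% each), beside 18.6% and 17.0% of all promoters. With the replicate block the calls above were kept, while of those below in these families only Ccl25 and Ccr7 were left. Of all promoters 2187 were then below input, in place of 4484. Deposited ratios of the 18 Ccl promoters ran from 0.0164 to 0.746 (median 0.293) and those of the 13 Cxcl promoters from 0.0370 to 0.349 (median 0.148).

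Clusters were defined by position, as 3 or more members of a class with each start within 500 kb of the next, and 30 of the 53 promoters fell in 6 of them. All 7 promoters above input were in clusters, as were 4 of the 10 below. The 22 clustered ligands had 163 ChIP and 463 input reads in v102 and 185 and 852 in v134, and the 11 unclustered ligands 53 and 239, and 78 and 415. The clustered ligands had 1.59 times the ratio of the others in v102 (1.11 to 2.29), where the interval leaves out 1, and 1.16 times in v134 (0.858 to 1.56), where it does not. The difference, clustered minus unclustered, was 0.44 ± 0.32 on the log2 scale (SD, n = 2 experiments), the same sign in both. The values of the single clusters were spread widely around this mean. By median percentile among all promoters, the clustered ligands stood at 61.0 and the unclustered ones at 50.5. With the trend of all promoters with GC content removed they stood at 48.5 and 53.6, in the reverse order.

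The Ccl2 to Ccl1 cluster on chromosome 11 spans 270 kb between starts and holds, in order, Ccl2, Ccl7, Ccl11, Ccl12, Ccl8 and Ccl1. Its pooled log2 ratio was 1.22 in v102 and 0.48 in v134, the highest of the ligand clusters in both. The level was uneven along it. Ccl2, the monocyte chemoattractant, had 8 and 3 ChIP reads against 25 and 48 input reads, a ratio of 0.151 (0.0808 to 0.281), with a log2 fold change of -0.45 (SE 0.53, adjusted p = 0.516 by edgeR). Ccl7, a monocyte chemoattractant too, and Ccl11, or eotaxin, had ratios of 0.291 and 0.294 and no call, and the next 2 genes, Ccl12 and Ccl8, were above input. The interval of Ccl2 does not overlap those of Ccl12 and Ccl8, but these hold counting error only. The log2 ratio of Ccl2 was 0.40 in v102 and -1.38 in v134, a spread that its interval leaves out. The difference between these genes was not tested. Ccl1, a ligand of Ccr8, had 11 and 10 ChIP reads against 14 and 40, a ratio of 0.389 and an adjusted p of 0.102, and its RefSeq start lies 126 kb from the GENCODE start used for its position.
The Ccl5 to Ccl4 cluster, 132 kb long on the same chromosome, holds Ccl5, Ccl9, Ccl6, Ccl3 and Ccl4, with pooled log2 ratios of 0.57 and 0.45. Ccl5, or RANTES, stood at its low end with 4 and 2 ChIP reads against 27 and 39, a ratio of 0.0909 (0.0403 to 0.205, adjusted p = 0.127), and Ccl4 at its high end. Ccl9, Ccl6 and Ccl3 lay between, at ratios of 0.397, 0.259 and 0.311 with no call. E230016K23Rik, a processed transcript whose start lies among these genes, was above input as well, with 10 and 33 ChIP reads against 21 and 39.

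The Cxcl5 to Cxcl2 cluster on chromosome 5 (Cxcl5, Cxcl3, Cxcl15, Cxcl1 and Cxcl2, 145 kb), which holds the neutrophil-attracting ligands, had pooled log2 ratios of -0.28 and -0.31. It had no call by edgeR on all 4 libraries (0 at an unadjusted p under 0.05). DESeq2 defined no adjusted p for its members, and 0 had an unadjusted p under 0.05. Its members' ratios ran from 0.122 at Cxcl2 to 0.349 at Cxcl15. When the H3K9me2 library of v102 was left out, Cxcl15 was called above input by edgeR. The windows of Cxcl2 and Cxcl3 shared 83 of their 1927 stretches of 75 bases with each other, and how reads of such stretches were placed is not given in the sources used here. Pf4, or platelet factor 4, and Ppbp are Cxc ligands of the same cluster whose symbols the rule leaves out. Pf4 was above input, with 16 and 23 ChIP reads against 25 and 71 (log2 fold change 1.01, SE 0.37, adjusted p = 0.0241 by edgeR), and Ppbp, with 6 and 10 against 23 and 31, passed neither way. The Cxcl9 to Cxcl11 cluster of interferon-induced ligands (37.4 kb, also on chromosome 5) had pooled log2 ratios of -1.92 and -0.64. Cxcl10, in its middle, was below input, and Cxcl9 and Cxcl11 passed neither way. GENCODE gives Cxcl11 as a polymorphic pseudogene, and its promoter is counted among the ligands here. In the Ccl22 to Ccl17 cluster on chromosome 8 (Ccl22, Cx3cl1 and Ccl17, 64.9 kb), the pooled log2 ratio was -0.03 in v102 and -1.48 in v134, a spread between experiments of over 1 log2 unit.

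**Figure D2:**
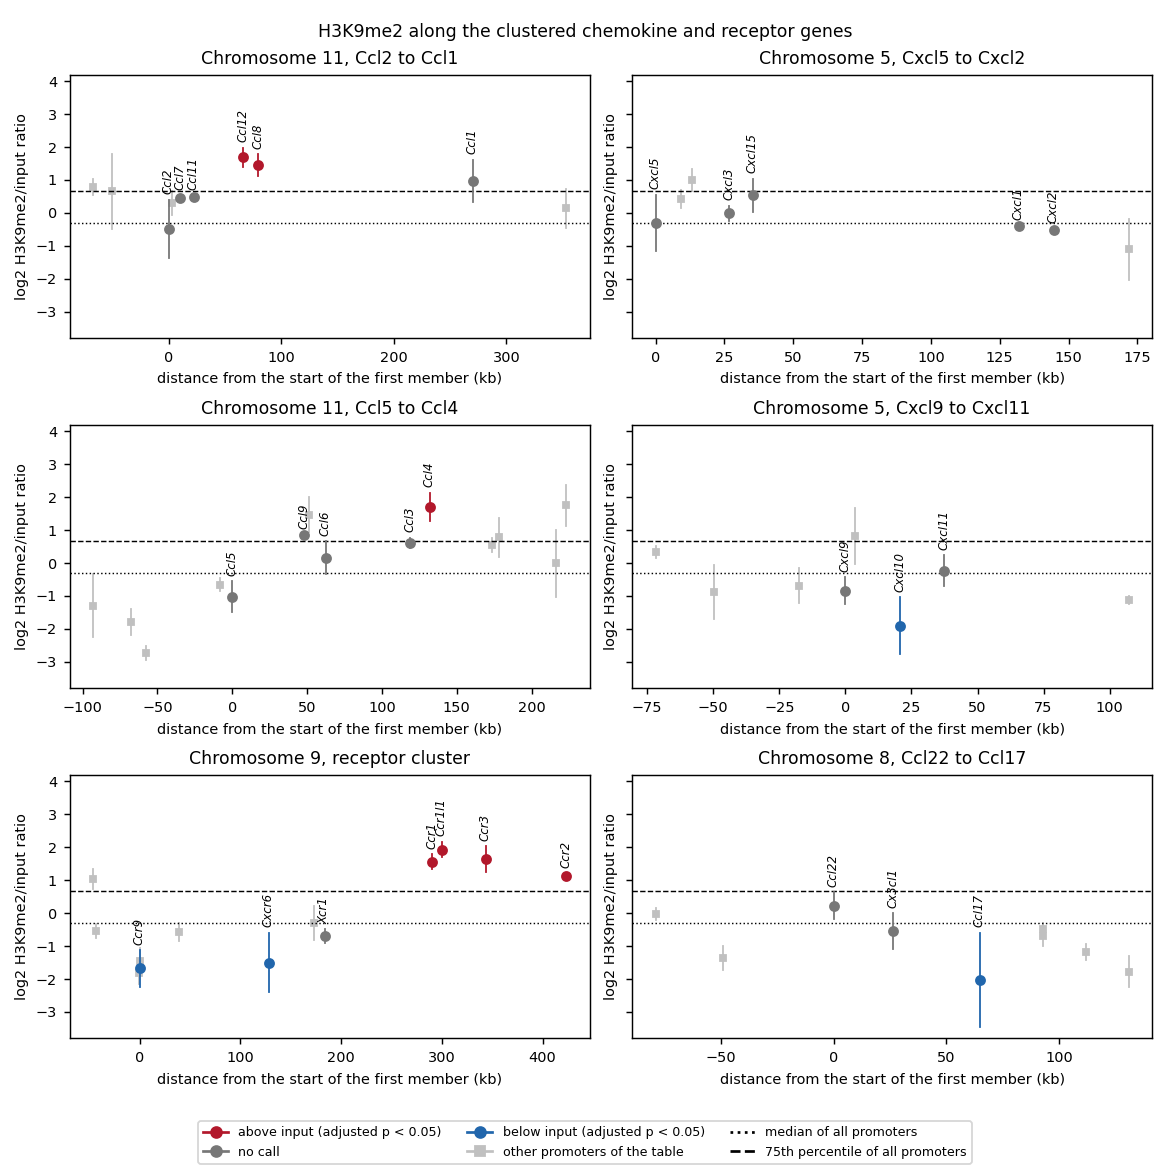
Mean log2 H3K9me2/input ratio at the promoters shown along the 6 clusters against the distance of its start from the first member, in kb; vertical bars span the 2 experiments and grey squares are other promoters of the table inside or within 100 kb. Ccl12 and Ccl8 lie above their neighbours on chromosome 11, and Ccr1, Ccr1l1, Ccr3 and Ccr2 lie together above the 75th percentile on chromosome 9.

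The receptors were compared by position in the same way. The chromosome 9 cluster holds 8 receptor promoters, among them, in order, Ccr9, Cxcr6, Xcr1, Ccr1, Ccr1l1, Ccr3 and Ccr2. Pooled, it had 69 ChIP and 148 input reads in v102 and 121 and 363 in v134, and the other 12 receptors 49 and 243, and 40 and 507. The cluster had 2.31 times the ratio of the other receptors in v102 (1.49 to 3.60) and 4.23 times in v134 (2.85 to 6.35). Cluster minus others was 1.64 ± 0.62 on the log2 scale (SD, n = 2 experiments), and both intervals leave out 1. The cluster windows had a median GC content of 39.8%, against 48.7% in the other receptors. By median percentile among all promoters, the cluster stood at 68.9 and the other receptors at 33.8. With the trend with GC removed they stood at 38.1 and 32.7. The part of base composition in this contrast was not tested. Within the cluster the mark was not uniform. The 4 adjacent promoters from Ccr1 to Ccr2, 133 kb in all and grouped after their values were seen, had pooled log2 ratios of 1.62 and 1.48. The other 4 members had -0.97 and -1.38: Ccr9 and Cxcr6 were below input, and Xcr1, the receptor of Xcl1 on dendritic cells, had a ratio of 0.104 and no call. Without the 4 adjacent promoters the rest of the cluster stood 0.27 log2 units below the other receptors (cluster minus others -0.27), where leaving out promoters for their high values could only lower the difference. The 3 other promoters of the table inside the cluster, Slc6a20a, Lztfl1 and Fyco1, passed neither way, at ratios of 0.0588 to 0.136.

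**Figure D3:**
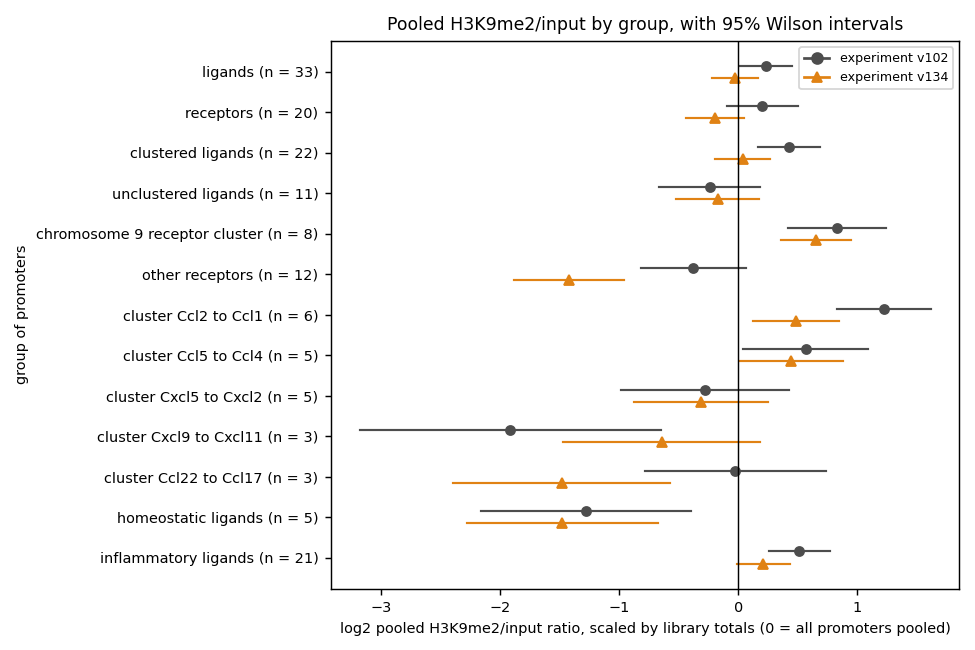
Pooled log2 H3K9me2/input ratio of groups of chemokine system promoters in v102 (circles) and v134 (triangles), scaled so that all promoters pooled are at 0; bars are 95% Wilson intervals for counting error. Ligands and receptors overlap in each experiment, while the chromosome 9 receptor cluster (0.83 and 0.65) lies above the other receptors (-0.38 and -1.42).

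In the pairs of ligand and receptor compared, the calls were alike in some and unlike in others. Ccl2 passed neither way while its receptor Ccr2 was above input. Cxcl12 was below input, as was its scavenger Cxcr7, and its signalling receptor Cxcr4, with 3 and 3 ChIP reads against 25 and 41 (ratio 0.0909), had a log2 fold change of -1.19 (SE 0.64, adjusted p = 0.129 by edgeR). Cx3cl1, or fractalkine, with 4 and 3 against 18 and 39, and its receptor Cx3cr1, with 5 and 2 against 14 and 34, passed neither way, and neither did Cxcl13 (3 and 5 against 17 and 35) and its receptor Cxcr5 (7 and 8 against 24 and 50).

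By class of ligand, the 21 inflammatory ligands (Ccl1 to Ccl9, Ccl11, Ccl12, Ccl20, Ccl24, Ccl26 and the Cxcl1 to Cxcl11 genes of the table) had 3 promoters above (14.3%) and 1 below input (4.76%), beside 18.6% and 17.0% of all promoters. Their median deposited ratio was 0.259, and their pooled log2 ratios were 0.51 and 0.21. The 5 homeostatic ligands (Ccl25, Ccl28, Cxcl12, Cxcl13 and Cxcl14) had 2 promoters below and 0 above input by edgeR (0 also unadjusted), beside 17.0% and 18.6% of all promoters. DESeq2 defined no adjusted p for them, and 0 were above input at its unadjusted p under 0.05. Their median ratio was 0.0926 and their pooled log2 ratios were -1.28 and -1.48. The 2 below were Ccl25, whose reads are mostly those of Elavl1, and Cxcl12, lost with the replicate block (adjusted p = 0.103 by edgeR). The homeostatic promoters had a median GC content of 57.3%, against 46.8% in the inflammatory ones.

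Base composition moved with the mark across the members. The 2 kb windows of the 7 promoters above input had 36.9% to 46.4% GC (median 42.7%), those of the 10 below 39.7% to 59.0% (median 49.4%), and the median of all promoters was 50.9%. Across the 53 promoters the mean log2 ratio and GC content had a Spearman correlation of -0.48, given as a description since all points share the same 4 libraries, and over 24049 promoters of the table with a GC value on the autosomes and X it was -0.54. When the trend of all promoters with GC was removed, the 7 promoters above input ranked at percentiles 66.7 to 94.6 of all promoters. Ccl4 (94.6), Ccl12 (94.2), Ccl8 (90.2) and Ccr1l1 (91.6) remained in the top quartile, while Ccr1 (74.3), Ccr2 (68.8) and Ccr3 (66.7) did not. GC content was taken at GENCODE starts. That of Ccr1l1 lies 8.31 kb from its RefSeq start, so its GC value may not be that of the window counted. Of the 10 below, 9 were in the lowest quartile after this step, and Cxcl12, at 25.2, was at its edge. The part of base composition in the calls was not tested.

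**Figure D4:**
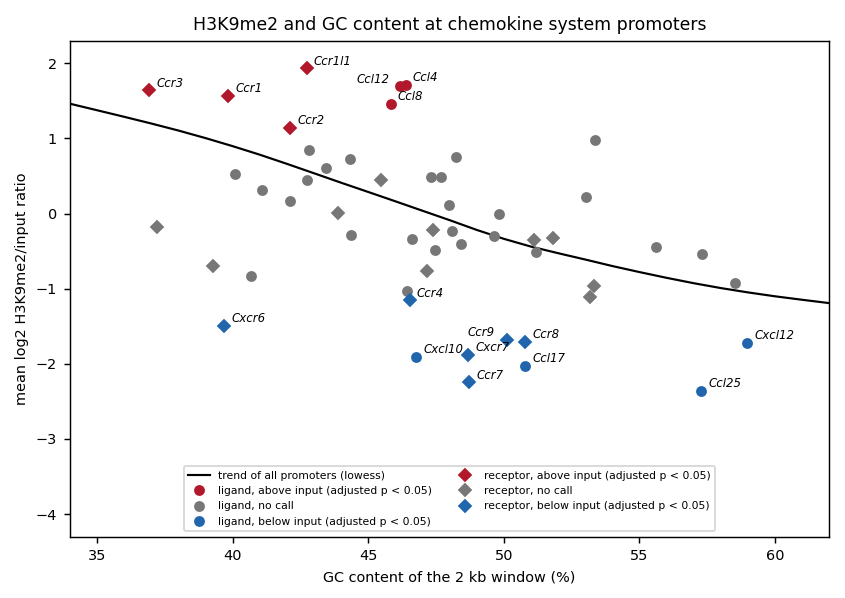
Mean log2 H3K9me2/input ratio against the GC content of the 2 kb window for the 53 promoters, with the trend of all promoters as a line; circles are ligands, diamonds receptors, and colours the edgeR call. The ratio falls with GC along the line, and Ccl4, Ccl12, Ccl8 and Ccr1l1 lie well above it, while Ccr3 and Ccr1 lie nearer to it at lower GC.

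In promoter sequence, 38 of the 53 members had a RefSeq entry. At Ccl1, Ccr1l1, Cx3cr1, Ccr4 and Ccr9 the RefSeq start lay over 1 kb from the GENCODE start. Which start was counted is not given in the sources used here. The motifs and CpG counts of these promoters may therefore belong to another place than their reads. The NF-kB consensus occurred in the 250 bases before the start of 8 of the 38, where 5.00% of 32817 RefSeq promoters held it. These were Ccl1, Ccl9, Ccl20, Cxcl1, Cxcl2, Cxcl3 and Cxcl10 among the 22 ligands, and Ccr3 among the 16 receptors. Of these 8 promoters, Ccr3 was above input, Cxcl10 was below and the other 6 passed neither way. TATAAA occurred in 10 of the 38 and in 7.60% of RefSeq promoters, and TGANTCA in 4 of the 38 (Ccl9, Cxcl10, Ccr3 and Ccr4) and in 6.75%. CpG dinucleotides numbered 0 to 2 in the promoters above input with an entry and 1 to 45 in those below, where the upper end is Ccl25. The medians were 1 and 3, and the median of all RefSeq promoters was 6. A match of letters is not evidence that a factor binds there.

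Genes of the chemokine pathway outside the family, from ligand-like and signalling genes to regulators, numbered 46 in the list used. Of these 5 were above input, 7 were below and 34 passed neither way, and the median ratio was 0.114. These are 10.9% and 15.2% of the list, beside 18.6% and 17.0% of all promoters, so neither share was above the background. With the replicate block 3 and 3 of these calls were left. Among those above were Pf4, Dock2 and Tiam1, the latter pair activators of Rac in migrating cells, and the myeloid kinase Fgr, at ratios from 0.406 (Pf4) to 0.625 (Dock2), of which Tiam1 and Fgr were lost with the block (adjusted p = 0.0575 and 0.106 by edgeR). Below were Cklf, Cmtm3, Cmtm6, Grk6, Cdc42, Elmo1 and Jak2, at ratios from 0.0167 (Cmtm3) to 0.0610 (Cklf), and of these Cklf, Cmtm6, Cdc42 and Jak2 were lost with the block. The 2 control promoters that the study used for the mark, Magea2 and Actb, had ratios of 0.455 (3 and 7 ChIP reads against 6 and 16, adjusted p = 0.170 by edgeR) and 0.0119 (0 and 1 against 31 and 53, adjusted p = 0.000210). Each of the 7 chemokine system promoters above input had a higher deposited ratio than Magea2, which rests on few reads.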

How the data were processed

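The authors trimmed the reads with Trim Galore 0.4.2 and cutadapt 1.9.1, aligned them to GRCm38 with Bowtie2 2.2.7 and counted reads around transcription starts in SeqMonk. The deposited values are raw read counts for each library, the sums over experiments and the ChIP/input ratio of those sums. The annotation release and the handling of duplicate reads are not given in the sources used here. Every promoter of the table had at least 21 summed input reads, and 21 of the 53 members had fewer than 20 input reads in v102. No step of the authors' processing that is described scales the ratio or corrects it for GC content.

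Here the counts were tested with edgeR 4.0.16 (R 4.3.3; quasi-likelihood, TMM, no block) on all 26354 promoters, with DESeq2 1.42.0 as an alternative; the common dispersion was 0.0192. The p-values rest on a spread between 2 experiments that is estimated largely across all promoters. They are therefore no measure of how well a single promoter repeated. Log2 ratios were scaled by promoter totals with a pseudocount of 1. Groups were compared by pooled reads. The named promoters are those past the threshold, the highest and lowest 3 ligands and receptors by mean log2 ratio, the member the paper names and known pairs. Positions and GC content came from GENCODE M21, matched by symbol (22329 promoters) or RefSeq synonym (1757), and the GC trend was a lowess fit (fraction 0.3). The sources pair each ChIP library with its input by experiment; across promoters the ChIP and input differences between experiments correlated at 0.104. Counts of the same kind differed beyond Poisson error (chi-square over its degrees of freedom 1.52 for ChIP, 1.28 for input), so no library's counts were a copy of another's. This cannot tell separate material from a second library of the same material. The paper describes the 2 ChIP experiments as independent. The test script was first tested on simulated data with known changes, 50 promoters to each size of change. Of promoters set at 4, 2, 0.5 and 0.25 times input, 96%, 8%, 0% and 18% were called. Fewer promoters changed there than were called in the data, so these shares may not carry over. A promoter with no call is not shown to be at the level of input. Python 3.11.15 was used for the rest. The members, lists and tests were chosen with earlier results of these data known. Single values of a few promoters are not reported here, though group totals include them.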

Additional observations from a re-analysis of the deposited data

How the results depend on the processing

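The number of promoters above input was 7 and ran from 5 to 9 when each library was left out in turn. The number below input was 10 and fell to 3 where each input was required to hold 20 reads (7 of the 10 could be tested), to 2 with the replicate block and to 0 in DESeq2, which gave no adjusted p to any of the 10. Leaving out each library in turn gave 0 to 6 below. Scaling by library totals kept all 17 calls, and moved the median log2 fold change over the table from -0.35 to -0.50. The block changed no other call of a member. Calls below input over the whole table fell likewise, from 4484 to 2187 with the block, to 495 and 515 without an input library and to 27 in DESeq2. The median log2 ratio of the members, -0.29, was 0.36 with a pseudocount of 5, and -0.35 and 0.12 with v102 and v134 left out. The chromosome 9 contrast became -0.27 without Ccr1, Ccr1l1, Ccr3 and Ccr2, an alternative chosen after seeing the data. The cause of these changes was not tested, other than that fewer promoters or libraries entered.

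Of the 6 promoters with no call whose log2 fold change was recomputed, 3 changed sign. Leaving out each library in turn gave -1.44 to 0.34 at Ccl2, -1.41 to 0.28 at Cx3cr1 and -0.077 to 0.14 at Cxcr5. Cxcr5 (-0.02) was also at 0.32 where each input held 20 reads, at 0.00176 without mitochondrial promoters and at 0.027 in DESeq2. Depth limits the low end: a ChIP count of 0 to 4 cannot place a promoter finely among those with little H3K9me2.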

Other observations

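The atypical chemokine receptors under older symbols, which the rule leaves out, were named after their values were seen. Ccbp2, now Ackr2, a scavenger of inflammatory Ccl ligands, was above input with 22 and 23 ChIP reads against 27 and 30 input reads, a ratio of 0.789 and a log2 fold change of 1.89 (SE 0.38, adjusted p = 1.49e-05 by edgeR). Darc, now Ackr1, known from red cells and venules, had 14 and 12 against 20 and 50 (log2 fold change 0.87, SE 0.42, adjusted p = 0.0915). Ccrl1, now Ackr4, a scavenger of Ccr7 ligands, had 4 and 4 against 21 and 49, and Ccrl2 had 2 and 4 against 27 and 30, with no call at either.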
